A study of Mus musculus with 3 samples.

Results

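The cells described here are the 10% of each library with the highest absorptive score in sc-RNAseq of mouse colon organoids, 489 of 4909 filtered cells. They comprised 105 of 1058 untreated cells, 91 of 917 cells after 24 h of IFN-γ and 293 of 2934 cells after 48 h. Cells were kept with at least 5000 unique molecular identifiers (UMIs, each a counted transcript molecule), at least 400 detected genes and at most 15% mitochondrial UMIs. The score was the mean of ln(1 + UMIs per 10000) over Krt20, a keratin of differentiated surface cells, Slc26a3, the chloride-bicarbonate exchanger of the colonic brush border, Ceacam20, Sult1b1, a sulfotransferase, and Ces2c, a carboxylesterase. The cells were chosen by the measured values of these 5 genes, which are therefore not results. The cells are called high-score cells below, since the cut is a fixed share of each library, and their share says nothing about how many colonocytes a library held.

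The organoids were grown from epithelial crypts of the mouse colon in a full medium with a Wnt surrogate, R-spondin, the GSK3 inhibitor CHIR-99021, EGF, the BMP antagonist Noggin and the TGF-β receptor inhibitor A83-01, and all 3 libraries share this medium. The groups were organoids without IFN-γ, with IFN-γ for 24 h and with IFN-γ for 48 h, 1 library each. The study describes the donors of its organoids as untreated wild-type mice, and which of the study's mouse strains and sexes gave rise to them was not stated for these libraries. Such cultures hold epithelium alone, under strong Wnt activation and BMP inhibition, without stroma or immune cells. Live cells were sorted as DAPI-negative before droplet capture with 10x Genomics 3′ v3 kits. Each comparison below is therefore between the cells of 1 library and those of another, or within 1 library, without a test across samples. Intervals are 95% intervals for counting error only.

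Colonocytes form at the top of the colonic crypt from dividing progenitors that leave the cell cycle. They absorb water, sodium and chloride, burn butyrate and other fatty acids from the lumen, and inactivate xenobiotics with cytochrome P450 enzymes, conjugating enzymes and efflux pumps. IFN-γ acts through transcription factors that bind GAS and IRF motifs in promoters and induces antigen presentation, guanylate-binding proteins and immunity-related GTPases.

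High-score cells of the untreated, 24 h and 48 h libraries held 4912646, 5247675 and 4774140 UMIs, against 44889289, 65830142 and 42469360 UMIs in the other filtered cells. Their median depth was 44568 UMIs in untreated organoids, 38696 at 24 h and 12459 at 48 h, whereas the other cells had medians of 31829, 71212.5 and 10524 UMIs. The median mitochondrial share was 5.57%, 3.23% and 6.34% in high-score cells and 4.72%, 2.03% and 6.12% in the others. The last cell inside the cut scored 0.370, 0.125 and 0.0809 in the same order, and the next cell outside scored 0.366, 0.125 and 0.0807. The median score of the chosen cells was 0.686, 0.255 and 0.194. The score was 0 in 57.4% of untreated cells, 69.5% of cells at 24 h and 87.0% at 48 h, so that the cut reached much lower scores in treated organoids.

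**Figure D1:**
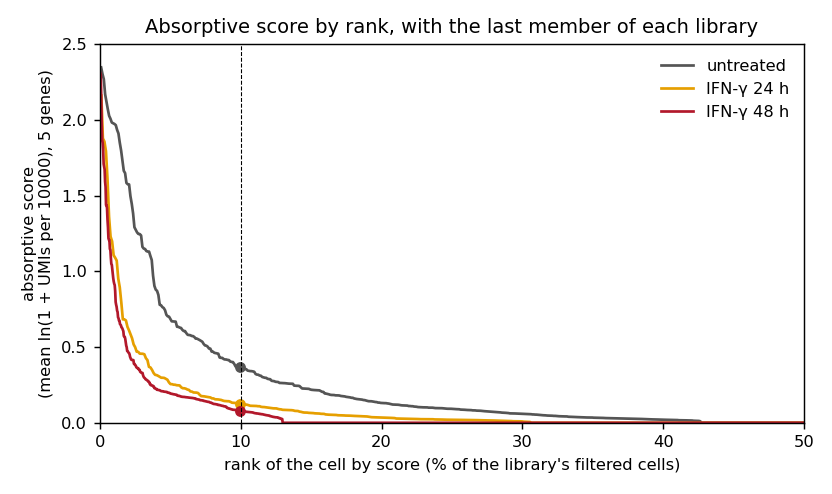
Absorptive score (mean ln(1 + UMIs per 10000) over 5 genes, y axis) against the rank of the cell as a percent of the filtered cells of its library (x axis), 1 line per library, with a point at the last high-score cell. At the 10% cut the untreated line stands at 0.370, the 24 h line at 0.125 and the 48 h line at 0.0809.

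Markers outside the score went with the label in untreated organoids and only in part in treated ones. These markers were chosen with earlier results of these data known, so they describe the cells and are no independent support. A list of 20 further colonocyte genes, among them Car1, Aqp8, Lypd8 and Guca2a, had a median of 136 UMIs per 10000 in untreated high-score cells and 14.7 in the other cells. At 24 h the medians were 27.4 and 14.9, and at 48 h 23.8 and 12.3. UMIs of at least 3 score genes were found in 90 of 105 untreated high-score cells, but in 43 of 91 at 24 h and 70 of 293 at 48 h. The rest had fewer, and 30 cells at 24 h and 169 cells at 48 h entered through 1 score gene alone. Those 30 and 169 cells were shallow, with medians of 9109 and 9195 UMIs, and their colonocyte list level, 16.2 and 15.3 UMIs per 10000, lay close to that of the other cells. The cells with at least 3 score genes had 162, 45.9 and 80.6 UMIs per 10000 in the 3 libraries. Values in treated organoids are therefore given for all high-score cells, with those of the cells with at least 3 score genes beside some of them. These cells were chosen by the same 5 genes. Their median depth was 46468, 71662 and 18201.5 UMIs in the 3 libraries, so that the deeper cells at 24 h could meet this condition at lower levels. They were taken from the high-score cells alone, so the unequal score cut applies to them too. Of all filtered cells, 131, 63 and 70 had at least 3 score genes. How far the cut set the ratios given for them was not tested.

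**Figure D2:**
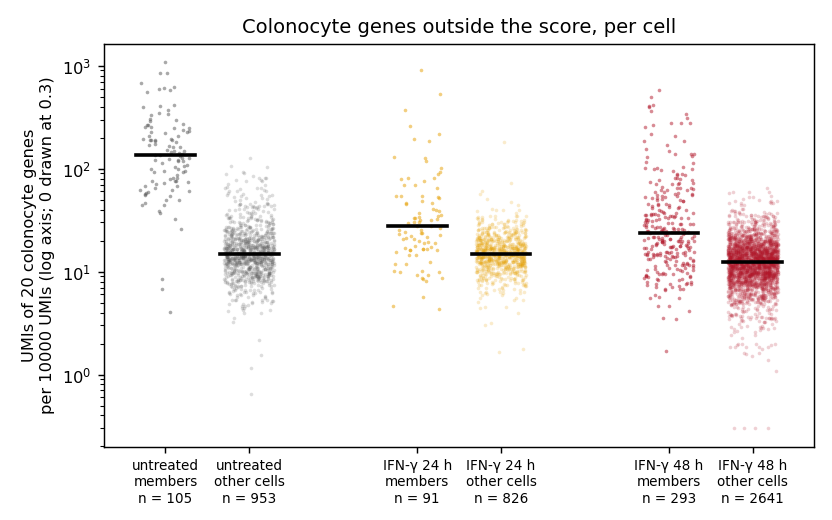
UMIs of the 20 colonocyte genes outside the score per 10000 UMIs of a cell (y axis, log scale, cells without such UMIs drawn at 0.3), 1 point per cell, for high-score cells (labelled members) and other cells of each library (x axis), with black bars at the medians. The untreated high-score cells (median 136) mostly stand above the other untreated cells (14.7, highest 127.9), whereas the treated high-score cells (27.4 and 23.8) overlap the others widely.

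Markers of immune, stromal and tuft cells were rare, whereas those of enteroendocrine cells were not. The immune list of 14 genes summed to 1.22 CPM (UMIs per 1000000 UMIs of the group) in untreated high-score cells, 4.76 CPM at 24 h and 3.14 CPM at 48 h, with Cd68 as its most abundant gene and Ptprc and Cd3e at 0 in each library. The stromal list summed to 3.87, 10.9 and 15.3 CPM, with Col1a1, Col1a2 and Col3a1 at 0 and Acta2 as the most abundant gene in both treated libraries, and the tuft list to 6.72, 6.29 and 5.45 CPM. In the same order of libraries, 0, 2 and 12 high-score cells were also in the top 10% of a goblet score, and 5, 12 and 11 were in the top 10% of a mitotic score. The enteroendocrine list of 12 genes summed to 380 CPM in untreated high-score cells, 3206 CPM at 24 h and 155 CPM at 48 h, against 176, 39.2 and 75.6 CPM in the others, and to 14.8, 8.26 and 10.7 CPM in the cells with at least 3 score genes. At least 5 Chga UMIs per 10000 were found in 3, 4 and 3 high-score cells of the untreated, 24 h and 48 h libraries and in 15, 6 and 12 of the other cells. Barcodes below 2000 UMIs, taken as a measure of free RNA, had 2591, 1858 and 1460 CPM of the colonocyte list, above or close to the 1922, 1737 and 1412 CPM of the other cells. There were 17603, 15994 and 14296 such barcodes, with 29083744, 21360862 and 25531597 UMIs. Whether they were empty droplets or poor cells was not tested. How much of the RNA counted in a cell was free RNA was not tested, for these genes or for those below. No barcode of a high-score cell recurred among the high-score cells of another library, and the filtered cells shared 1, 4 and 1 barcodes between pairs of libraries.

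Promoters of 3 genes that recur below are shown here as the 250 bases before the annotated start in RefSeq (GRCm38.p6), 5′ to 3′ on the strand of the gene. Of 18 symbols looked up, 14 had an entry. Gbp2 is shown for its rise under IFN-γ, Apol10a because it was both induced and higher in high-score cells than in the others, and Cyp2c55 for its fall. Capitals mark matches to the IRF motif (GAAA, any 2 bases, GAAA) or the GAS motif TTCNNNGAA on either strand.
Gbp2 (chr3:142620413-142620662, plus strand): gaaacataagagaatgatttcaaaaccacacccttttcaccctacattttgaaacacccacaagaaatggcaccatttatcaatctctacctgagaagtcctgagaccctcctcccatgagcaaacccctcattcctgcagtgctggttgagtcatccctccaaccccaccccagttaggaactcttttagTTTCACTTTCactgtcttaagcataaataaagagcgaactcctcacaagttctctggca
Apol10a (chr15:77476797-77477046, plus strand): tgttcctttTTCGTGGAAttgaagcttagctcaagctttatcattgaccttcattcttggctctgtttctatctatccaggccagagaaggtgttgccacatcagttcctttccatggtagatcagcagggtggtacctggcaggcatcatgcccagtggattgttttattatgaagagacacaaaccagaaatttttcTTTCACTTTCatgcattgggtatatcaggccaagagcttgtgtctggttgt
Cyp2c55 (chr19:39006769-39007018, plus strand): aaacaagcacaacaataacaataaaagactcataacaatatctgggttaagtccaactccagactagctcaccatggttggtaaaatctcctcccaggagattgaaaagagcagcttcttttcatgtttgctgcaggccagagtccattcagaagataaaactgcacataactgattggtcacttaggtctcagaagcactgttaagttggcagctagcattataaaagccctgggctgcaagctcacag
Gbp2 had 1 IRF match and Apol10a 1 GAS and 1 IRF match, whereas neither motif occurred in this window of Cyp2c55. Neither occurred in the entries of the other genes looked up, which included the induced Upp1 and Ubd. Over all 32851 promoters of this length, 7.02% held the GAS letters and 2.98% the IRF letters, so that a match is a description and not a site.

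Within each library, UMIs were summed over high-score cells and over the other filtered cells, scaled to CPM and compared as a log2 ratio, and a gene is called higher or lower at 2-fold. In such sums, more cells with a gene and more RNA per cell cannot be told apart. Since the score chose the cells, these ratios describe them and support nothing. In untreated organoids 502 of 8870 genes with at least 10 CPM were higher in high-score cells (5.66%) and 1652 were lower (18.6%). At 24 h 290 of 8188 genes were higher (3.54%) and 92 lower (1.12%), and at 48 h 185 of 8616 were higher (2.15%) and 58 lower (0.673%). The counts of lower genes depended on the cells that were counted: for the cells with at least 3 score genes they were 1837, 193 and 1288, beside 505, 269 and 446 higher genes. The median ratio of all genes tested was −0.27 in untreated organoids, −0.04 at 24 h and −0.09 at 48 h. Scaling by TMM factors would raise every ratio by 0.14 in untreated organoids and lower it by 0.11 at 24 h, where 222 genes would then be higher and 191 lower.

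Colonocyte genes outside the score were higher in high-score cells of each library. Of those that passed the 10 CPM limit, 15 of 16 were higher in high-score cells of untreated organoids, 7 of 10 at 24 h and 6 of 9 at 48 h. Car1 (chr3:14766216-14808368), a cytosolic carbonic anhydrase that supplies bicarbonate for exchange, stood at 7355 CPM in untreated high-score cells and 289 CPM in the others. At 24 h it was 656 against 55.7 CPM and at 48 h 339 against 24.7 CPM, which gave log2 ratios of 4.67, 3.56 and 3.78. High-score cells thus stood above their neighbours in each library, by less in the treated ones, and their own level was far lower there. Lypd8 (chr11:58379043-58390728), which coats flagellated bacteria and keeps them off the mucosa, had 4605, 3042 and 2810 CPM in high-score cells and 494, 682 and 523 CPM in the others. UMIs of Lypd8 were found in 99.0%, 97.8% and 96.2% of high-score cells, but also in 94.5%, 97.5% and 90.9% of the others. Mxd1, a MAX partner that opposes MYC and marks cells leaving division, had 182, 99.5 and 65.8 CPM against 7.71, 6.24 and 6.50 CPM. Slc20a1, a phosphate transporter, was an exception. It was 2.98 higher on the log2 scale in untreated high-score cells and 0.13 and 0.33 higher at 24 h and 48 h, where it stood at 21.9 and 34.4 CPM against 20.1 and 27.3 CPM.

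Enzymes and pumps of detoxification formed the next group. Of the 25 genes of that list, 14, 8 and 7 passed the limit and 10, 4 and 3 of these were higher in high-score cells. Cyp2c55 (chr19:39007019-39042693), a cytochrome P450 of the large bowel, had 2622 CPM in untreated high-score cells and 130 CPM in the others. At 24 h it was 48.4 against 1.70 CPM and at 48 h 32.0 against 0.165 CPM. Only the untreated ratio, 4.33, is of a gene past the CPM limit. The treated ones, 4.83 (95% CI 4.50 to 5.16) and 7.60 (6.53 to 8.94), rest on 112 and 7 UMIs in the other cells. Abcb1a (chr5:8660077-8748575), the P-glycoprotein pump that returns drugs to the lumen, had 880, 72.2 and 74.6 CPM against 143, 14.3 and 15.6 CPM. Cyp4f14, which hydroxylates fatty acids and leukotrienes, and Cyp3a13 were higher by 5.18 and 4.59 in untreated high-score cells. Ugt2b34, a glucuronosyltransferase, was higher by 1.85, 1.18 and 1.35 in the 3 libraries. Gstm1, a glutathione transferase, and Ahr, the receptor for aryl hydrocarbons, were within 2-fold in each library. The median ratio over the list was 2.25 in untreated organoids, 2.20 at 24 h and 1.91 at 48 h, beside the medians of all genes given above.

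Brush border genes were higher in 7 of 15, 5 of 14 and 6 of 15 cases. Genes of the intermicrovillar adhesion complex, which links the tips of microvilli, were among them. The scaffolds Ush1c and Anks4b had log2 ratios of 1.37, 1.38 and 1.12 and of 1.65, 1.71 and 1.25, and Cdhr2, a protocadherin of the complex, had 2.47, 2.06 and 2.01. Myo1a, which ties actin bundles to the microvillus membrane, had 198, 86.5 and 102 CPM against 36.6, 19.9 and 22.5 CPM. Myo15b, an unconventional myosin, had ratios of 3.08, 2.73 and 2.63. Espn, an actin bundler that lengthens microvilli, was 4.68 higher in untreated cells and 3.06 higher at 48 h, and at 24 h it missed the CPM limit with 49.4 against 4.97 CPM. Vil1, villin, was 1.27 higher in untreated high-score cells and 0.99 at both treatment times, and Ezr and Eps8 stayed below 1 in each library. Baiap2l2 and Tm4sf5 were at or below the level of the other cells.

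Transporters of ions and water were found on both sides. In untreated organoids 6 of 15 were higher and 4 were lower, where 5.66% of all genes tested were higher and 18.6% lower. The higher group included genes of absorption: Slc26a2, a sulfate transporter, by 3.04, Slc9a2, a sodium-proton exchanger, by 3.38, Scnn1a, the α subunit of the epithelial sodium channel, by 2.01, Atp12a, the colonic proton-potassium pump, by 3.90, and Car2, a carbonic anhydrase, by 1.05. The lower group held Slc12a2, the basolateral chloride importer, by −1.71, and the potassium channels Kcnn4, Kcne3 and Kcnq1 by −2.33, −1.94 and −1.35, which serve chloride secretion. Cftr, the apical chloride channel of secretion, was not among them, with ratios of 0.41, 1.01 and 1.23. At 24 h 5 of 13 were higher and 2 lower, and at 48 h 4 of 13 were higher and 0 lower. The shares over all genes were 3.54% higher and 1.12% lower at 24 h, and 2.15% and 0.673% at 48 h. Few genes of any kind were thus lower in the treated libraries. The lower ratios were nearer to 0 after IFN-γ: that of Slc12a2 was −1.12 at 24 h and −0.67 at 48 h. Slc4a4, the basolateral sodium-bicarbonate cotransporter, had 21.2 CPM in untreated high-score cells and 41.0 CPM in the others. It had 93.6 against 46.9 CPM at 24 h and 169 against 102 CPM at 48 h, so that it stood on the lower side in untreated organoids and on the higher side in both treated libraries.

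Genes of fatty acid and butyrate use were 2-fold higher in 8 of 19 cases in untreated organoids and in 2 of 19 at each treatment time. Slc16a1, the monocarboxylate transporter for butyrate, had 134 CPM in untreated high-score cells and 57.0 CPM in the others. At 24 h it had 46.5 against 50.9 CPM and at 48 h 53.0 against 55.5 CPM. High-score cells had thus a lead in untreated organoids only, and the levels of the other cells were alike in the 3 libraries. The β-oxidation genes Hadh, Acadm and Acads were higher by 1.22, 1.26 and 1.11 in untreated high-score cells, and by 0.50 to 0.79 in treated ones. Cpt1a, which admits long-chain fatty acids to mitochondria, was higher by 1.63, 0.77 and 0.87. Ppargc1a, a coactivator of mitochondrial genes, was higher by 2.17, 1.61 and 1.29.

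Of the lineage transcription factors, Klf4 and Vdr were higher in each library. Klf4, which drives exit from the cell cycle at the crypt top, had 518, 224 and 119 CPM against 100, 58.4 and 34.4 CPM, and Vdr, the vitamin D receptor, 179, 79.1 and 108 CPM against 41.5, 38.1 and 43.4 CPM. Hnf4a, a regulator of enterocyte genes, was 0.62, 0.79 and 0.84 higher, and Cdx2, which sets intestinal identity, had ratios of 0.65, −0.16 and 0.18. Atoh1, the secretory determinant, and Ascl2 and Sox9 of the crypt base were lower in untreated high-score cells, by −4.89, −2.56 and −1.22. In total, 2 of 19 factors were higher and 3 lower in untreated organoids, 4 of 17 higher and 1 lower at 24 h, and 2 of 18 higher and 0 lower at 48 h. Over all genes tested, the shares were 5.66% higher and 18.6% lower, 3.54% and 1.12%, and 2.15% and 0.673% in the same order. The number of lower factors in untreated organoids is thus not a trait of this list. Keratins and junction genes were higher in 4 of 22, 4 of 22 and 2 of 22 cases. Krt8 was higher by 1.17, 1.22 and 1.17 and Krt19 by 1.17, 1.34 and 1.31, whereas their partners Krt18 and Krt7 were within 2-fold in each library. Cdh17, an intestinal cadherin, was higher by 1.22, 1.17 and 0.95, and Cldn2, the leaky claudin of the crypt base, was lower by −1.50 in untreated cells, with −0.85 and −0.23 in treated ones.

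Markers of division were low in untreated high-score cells. All 18 transit-amplifying genes were lower there, 0 of 18 at 24 h and 2 of 18 at 48 h, with medians of −2.11, −0.56 and −0.81. Per cell, this list had a median of 3.19 UMIs per 10000 in untreated high-score cells and 34.7 in the others, 21.6 and 41.0 at 24 h, and 18.5 and 33.6 at 48 h. In the cells with at least 3 score genes it was 2.92, 12.5 and 6.21. Cells were thinned to 5000 UMIs to compare shares, and then 17.1% of untreated high-score cells (95% CI 10.5 to 25.7%) and 71.8% of the others had an Mki67 UMI (48.6% and 86.9% unthinned). At 24 h these shares were 57.1% and 75.4%, and at 48 h 52.9% and 74.9% (80.2% and 95.6%, and 71.0% and 88.0%, unthinned). Stem genes were lower in 10 of 12, 5 of 11 and 3 of 12 cases and goblet genes in 11 of 11, 5 of 7 and 2 of 6. Lgr5, the Wnt-dependent receptor of stem cells, had 28.5, 13.3 and 38.3 CPM against 165, 58.5 and 95.6 CPM, and Muc2, the goblet mucin, 2.65, 8.0 and 10.1 CPM against 227, 34.6 and 22.0 CPM. Of the cell cycle arrest list, which also holds the cyclins Ccnd1 and Ccnd2, 5 of 16, 5 of 14 and 1 of 12 genes were higher. Cdkn1a, the p21 inhibitor, had 411, 626 and 311 CPM against 138, 195 and 146 CPM, and Cdkn2b, the p15 inhibitor, 113, 28.4 and 14.7 CPM against 18.8, 9.19 and 7.28 CPM.

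**Figure D3:**
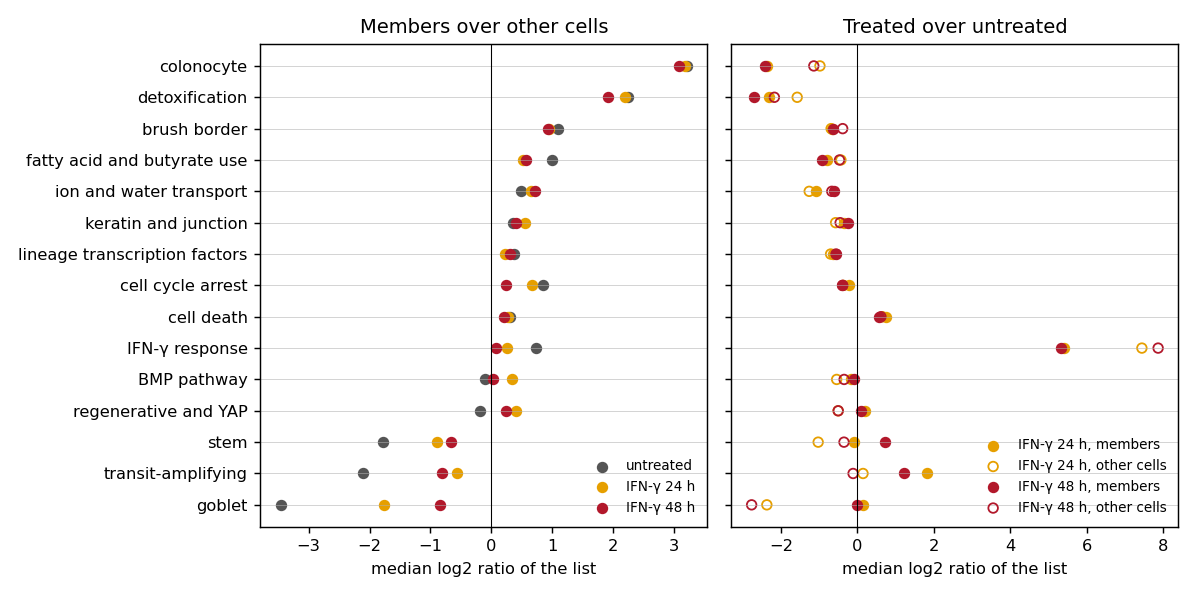
Median log2 ratio of the genes of each list with at least 20 UMIs, on the left for high-score cells (members) over the other cells of their library, on the right for treated over untreated organoids in high-score cells (filled) and in other cells (open). Colonocyte and detoxification genes lie far to the right in the left panel and to the left in the right panel, and the transit-amplifying list has medians of 1.83 and 1.21 under IFN-γ in high-score cells and 0.15 and −0.11 in the others.

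The leading genes differed between libraries. In untreated organoids the 10 highest ratios were those of Saa1 (9.93), Tgm3, a transglutaminase (9.41), Aqp8, the water channel (9.33), Slc37a2 (6.98), Ifit1bl1 (5.78), 1810065E05Rik, Cyp4f14, Espn, Car1 and Cyp3a13. At 24 h the 3 hormone-cell genes Pyy, Chgb and Chga came first, followed by Upp1 (4.17), Mxd1, Car1, Apol10a (3.45), Sprr1a, a cornified envelope protein, Myl7 and Slc10a2, the bile acid importer. At 48 h they were Apol10a (4.23), S100g, a calcium-binding protein (4.16), Car1, Upp1 (3.76), Muc3, Mxd1, AA467197, St3gal4, Espn and Selenbp1. Of 7891 genes tested in all 3 libraries, 116 were higher in each. The 10 with the highest smallest ratio were Car1 (at least 3.56), Mxd1, Muc3, a membrane mucin of the brush border, St3gal4, a sialyltransferase, AA467197, Myo15b, Clic5, Selenbp1, Slc9a2 and Abcb1a (at least 2.26). In all 3 libraries 13 genes were lower. The 134 genes that were higher in both treated libraries included 18 that were under 2-fold in the untreated library. Among them were the nitric oxide synthase Nos2, the nucleotide hydrolase Samhd1 and the chloride channel Cftr. The untreated ratios of the 18 ran from −0.37 for Samhd1 to 0.97 for Cd38, just under the limit. Cftr itself fell in high-score cells, with 164, 28.2 and 29.7 CPM. In treated cells with at least 3 score genes it had 26.7 and 20.2 CPM, against 14.1 and 12.7 CPM in the other cells. Samhd1 had 12.8 CPM in untreated high-score cells and 16.6 CPM in the others, 188 against 91.8 CPM at 24 h and 201 against 93.3 CPM at 48 h, with ratios of −0.37, 1.04 and 1.11, and in cells with at least 3 score genes it had 12.9, 198 and 324 CPM.

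Single cells decided some of these values. At 24 h, 1 cell held 9538 of the 9559 Pyy UMIs of high-score cells, and 4 cells had at least 5 Chga UMIs per 10000. Without those 4 cells the median ratio of the enteroendocrine list at 24 h was −1.15 instead of 4.57. Another cell at 24 h, with 27868 UMIs, held 126 of 174 Aqp8 UMIs and 285 of 412 Saa1 UMIs. It also had 726 Car1, 725 Lypd8 and 142 Krt20 UMIs, the highest Upp1 level (86.1 UMIs per 10000) and 20.8 Gbp2 UMIs per 10000, but 0.359 Cd74 UMIs per 10000, where the median of the 91 cells was 11.1. Only 3 of the 91 cells had that level of Cd74 or less. In the untreated library, 1 cell with all 5 score genes and 25789 UMIs held 342 of 576 Ifit1bl1 UMIs, 19 of 28 Gbp7 UMIs and 5 of 6 Gbp3 UMIs, with 0 Cd74 UMIs. Its IFN-γ response list came to 76.8 UMIs per 10000, where the next cell had 49.6 and the median cell 11.3.

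Treated high-score cells were then compared with untreated ones. The groups are the top 10% of each library whatever their score, and the treated groups hold the cells with 1 score gene described above. The values over cells with at least 3 score genes, given beside some ratios, leave those cells out but keep the unequal score cut. The 24 h and 48 h ratios share the untreated library. At 24 h 861 of 8475 genes were 2-fold higher (10.2%) and 777 lower (9.17%), and at 48 h 969 of 8593 were higher (11.3%) and 723 lower (8.41%). Which side was larger depended on the cells that were counted, with 491 higher and 1050 lower genes at 24 h for the top 20% of cells and 619 and 660 at 48 h for cells with at least 3 score genes. It also depended on the CPM limit. With a limit of 50 CPM, 285 genes were higher and 303 lower at 24 h, and 281 and 309 at 48 h. The median over all genes tested was −0.02 at 24 h and 0.10 at 48 h.

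Colonocyte genes were lower in high-score cells of treated organoids, 14 of 19 at 24 h and 14 of 19 at 48 h, and 0 were higher. Their median log2 ratio was −2.36 at 24 h and −2.43 at 48 h in high-score cells, and −0.98 and −1.14 in the other cells. In cells with at least 3 score genes it was −2.08 and −1.66. Car1 was lower by −3.49 (95% CI −3.54 to −3.44) and −4.44 (−4.51 to −4.37), and its median per cell was 34.1 UMIs per 10000 in untreated high-score cells (range 0 to 574), 1.15 at 24 h (0 to 261) and 0.241 at 48 h (0 to 62.5). The ranges overlapped, and the highest treated cells lay above the untreated median. Guca2a, guanylin, the ligand that sets chloride secretion, had 605, 30.7 and 68.1 CPM, and Slc37a2, a sugar-phosphate exchanger, had 98.3, 4.0 and 0.838 CPM. Slc20a1 had 185, 21.9 and 34.4 CPM in high-score cells, while in the other cells its ratios were −0.23 and 0.22.

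**Figure D4:**
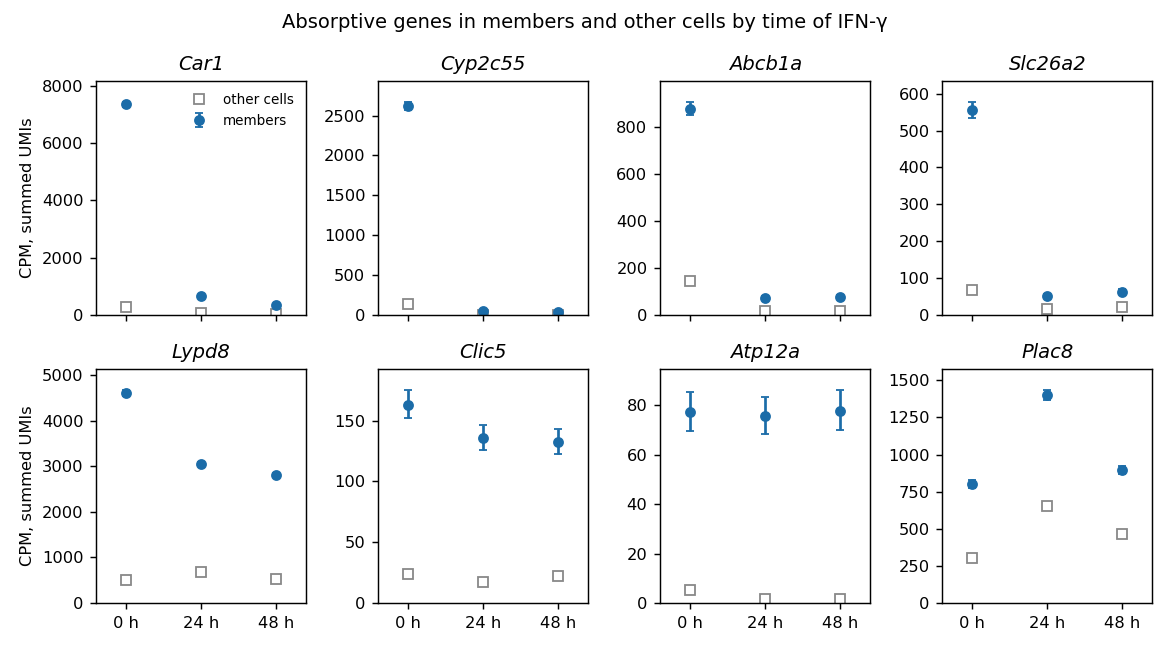
CPM from summed UMIs (y axis, from 0) of 8 absorptive genes in high-score cells (filled, labelled members, with 95% Poisson intervals for counting error) and in other cells (open) at 0, 24 and 48 h of IFN-γ (x axis), 1 library per time. Car1, Cyp2c55, Abcb1a and Slc26a2 drop to a small part of the untreated level, whereas Clic5 (163, 136 and 133 CPM) and Atp12a (77.4, 75.7 and 77.7 CPM) stay near it.

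Detoxification genes were lower as well. Of 16 genes that passed the limit, 14 were lower at 24 h and 14 at 48 h, with medians of −2.32 and −2.71 in high-score cells and −1.58 and −2.17 in the others. Over cells with at least 3 score genes the medians were −2.20 and −1.83. The list summed to 2983, 518 and 363 CPM in high-score cells, to 706, 185 and 141 CPM in the others and to 734, 166 and 100.1 CPM in barcodes below 2000 UMIs. Cyp2c55 was lower by −5.76 (95% CI −5.94 to −5.58) and −6.35 (−6.59 to −6.12). Its median was 23.3 UMIs per 10000 in untreated high-score cells and 0 in both treated groups, where 31.9% and 13.3% of the cells had a UMI against 97.1% untreated. Abcb1a was lower by −3.61 and −3.56, and its median per cell was 7.63, 0.353 and 0 UMIs per 10000. Gsta1, a glutathione transferase, had 399, 63.1 and 15.9 CPM, and Cyp4f14 had 183, 17.0 and 14.7 CPM. Nr1i2, the pregnane X receptor that controls many of these genes in gut and liver, was within 2-fold in high-score cells, with −0.89 (95% CI −1.24 to −0.54) and −0.62 (−0.95 to −0.28). In the other cells it was past 2-fold, with −1.03 and −1.10. Ahr was also within 2-fold, with −0.60 and −0.23.

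The 10 largest falls were those of Cyp2c55, Fhl1, a LIM-domain protein (−6.70 and −5.56), Il18, an epithelial cytokine (−6.46 and −5.49), Hsd3b3, a steroid dehydrogenase (−5.27 and −7.83), Cyp2c68 (−4.90 and −6.50), Slc37a2 (−4.62 and −6.87), Tmigd1 (−4.54 and −4.99), Hao2, a peroxisomal oxidase (−4.24 and −5.96), Rbp2, a retinol carrier (−4.20 and −5.32), and Hsd17b2, which inactivates sex steroids (−4.11 and −4.24). Il18 stood at 151 CPM in untreated high-score cells, 1.72 CPM at 24 h and 3.35 CPM at 48 h. The other cells had 18.4, 1.25 and 0.636 CPM, so the fall was not limited to high-score cells.

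Other absorptive functions changed less. Brush border genes were lower in 5 of 15 cases at 24 h and 3 of 15 at 48 h, with medians of −0.67 and −0.65 against −0.69 and −0.39 in the other cells. In cells with at least 3 score genes the median at 48 h was −0.08. Cdhr2 (−1.46 and −1.30) and Baiap2l1 (−1.29 and −1.09) were lower at each time, and Vil1 (−0.50 and −0.23) and Pls1, plastin 1 (0.16 and 0.36), were within 2-fold. Fatty acid genes were lower in 6 and 8 of 20 cases, with medians of −0.80 and −0.92 against −0.43 and −0.47 in the other cells. Slc16a1 was lower by −1.52 (95% CI −1.74 to −1.31) and −1.34 (−1.55 to −1.12), while its ratios in the other cells were −0.16 and −0.04. Ion transporters were lower in 7 of 13 and 7 of 14 cases, with medians of −1.08 and −0.62 against −1.26 and −0.67 in the other cells. Slc26a2 had 556, 50.7 and 63.0 CPM, Car2 2315, 527 and 333 CPM, and Cftr 164, 28.2 and 29.7 CPM, and each was also lower in the other cells, by −1.99 and −1.74, −1.29 and −1.85, and −3.14 and −3.28. Slc4a4 was the only gene of this list that was 2-fold higher, by 2.14 (95% CI 1.84 to 2.46) and 3.0 (2.70 to 3.30), with 2.20 and 3.19 in cells with at least 3 score genes and 0.19 and 1.32 in the other cells.

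Some genes of absorptive cells were within 2-fold in the summed profiles. Clic5 (chr17:44188584-44280172), a chloride channel protein that binds ezrin in microvilli, had 163, 136 and 133 CPM in high-score cells, with a median per cell of 1.02, 0.733 and 0.476 UMIs per 10000, and Atp12a had 77.4, 75.7 and 77.7 CPM. Atp12a rested on few cells, with UMIs in 28 of 105, 15 of 91 and 39 of 293 high-score cells, and 1 cell held 34%, 22% and 18% of them. Lypd8 was within 2-fold in the sums, with −0.60 (95% CI −0.63 to −0.57) and −0.71 (−0.74 to −0.68), and its median per cell was 34.2, 12.6 and 10.8 UMIs per 10000. Plac8, a small cysteine-rich protein of the upper crypt, had 801, 1400 and 897 CPM, with ratios of 0.80 and 0.16. Krt8 (4451, 3098 and 2727 CPM) and Krt19 (3972, 2247 and 1768 CPM) had ratios of −0.52 and −0.82 at 24 h and of −0.71 and −1.17 at 48 h, where Krt19 was thus past 2-fold. Differences of this kind depend on which cells were counted: at 48 h the ratio of Lypd8 was −0.71 over all high-score cells and 0.30 over those with at least 3 score genes.

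Genes of division had higher levels at 24 h, while at 48 h this depended on the cells that were counted. All 18 transit-amplifying genes were 2-fold higher at 24 h and 12 of 18 at 48 h in high-score cells, with medians of 1.83 and 1.21, while 0 of 18 were higher in the other cells, with medians of 0.15 and −0.11. Over cells with at least 3 score genes the medians were 1.91 and 0.79. The median of 5 mitotic genes was 1.56 at 24 h and 1.07 at 48 h over all high-score cells, but 1.87 and −0.18 over those with at least 3 score genes. The transit-amplifying list summed to 945, 2892 and 1991 CPM in high-score cells and to 4192, 3935 and 3670 CPM in barcodes below 2000 UMIs, and the part of free RNA in these ratios was not tested. Rrm2, a subunit of ribonucleotide reductase, had 15.1, 97.9 and 50.1 CPM, Mcm5, a subunit of the replicative helicase, 10.6, 49.0 and 48.4 CPM, and Top2a 167, 493 and 367 CPM in high-score cells. In the other cells Rrm2 had 94.1, 131 and 90.7 CPM, so that treated high-score cells stood between untreated high-score cells and their neighbours. Stem genes were higher in 1 of 8 and 4 of 11 cases and lower in 2 and 1, with medians of −0.08 and 0.73, and of −0.05 and −0.02 over cells with at least 3 score genes. Of the cell cycle arrest list, 5 of 16 and 8 of 16 genes were lower and 1 and 1 higher. The higher gene was Ccnd1 (1.13 and 1.27), cyclin D1, which is in the list as a cyclin and not as an arrest gene. Cdkn2b and the antiproliferative Btg1 were lower, with 113, 28.4 and 14.7 CPM and 459, 114 and 99.5 CPM, and Cdkn1a was within 2-fold, with 0.61 and −0.40. Klf4 was lower by −1.21 and −2.12, and Hes1, the Notch target of absorptive progenitors, by −2.07 and −2.25 in high-score cells and −1.97 and −2.43 in the others.

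All 38 genes of the IFN-γ response list were higher at each time in high-score cells. Their summed level per cell was close in all high-score cells and the other cells of each library. The medians were 11.3 and 9.87 UMIs per 10000 in untreated organoids, 111 and 107 at 24 h, and 149 and 141 at 48 h. In cells with at least 3 score genes they were 11.5, 119 and 172, so that the likeness at 48 h was weaker there. Barcodes below 2000 UMIs held the list at a similar level, with 1201, 10014 and 13110 CPM against 1228, 12676 and 15908 CPM in the sums of high-score cells, so that free RNA and expression cannot be told apart in this likeness. The 10 largest rises by these ratios were Cd74, Iigp1, Ido1, Gm4951, Gbp2, Cxcl9, H2-Ab1, Gbp6, Igtp and Psmb8, which serve antigen presentation, guanylate-binding and immunity-related GTPase defence, chemokine signalling, the immunoproteasome and tryptophan breakdown. Of the list, 8 genes had 0 UMIs in untreated high-score cells, among them Cd74, Iigp1 and Ido1. Their ratios are lower bounds from the floor of 3 counts, and that of Gbp2 rests on 1 UMI. The order and membership of these 10 are therefore not exact. Gbp2 (chr3:142620602-142638008) had 1 UMI in untreated high-score cells and 3383 and 3591 UMIs after IFN-γ, ratios of 11.63 (95% CI 9.15 to 16.93) and 11.85 (9.37 to 17.16). Cd74, the invariant chain, had 0, 6942 and 11648 UMIs, at least 11.08 and 11.96 higher. It had 905 and 1855 CPM in barcodes below 2000 UMIs after treatment, beside 1323 and 2440 CPM in high-score cells.

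A few induced genes had higher levels in high-score cells than in the others. Ido1 (chr8:24584136-24597009), which starts tryptophan breakdown, had 0 UMIs in untreated high-score cells, 469 CPM at 24 h and 606 CPM at 48 h, against 185 and 185 CPM in the other cells. The ratios were 1.34 and 1.71, and the medians per cell were 3.09 and 3.10 UMIs per 10000 in high-score cells and 1.02 and 1.20 in the others. At 24 h this was not particular to high-score cells. After thinning to 5000 UMIs, 73.6% of high-score cells (95% CI 63.3 to 82.3%) and 67.0% of the top 10% by goblet score (56.4 to 76.5%) had an Ido1 UMI. The other cells had 45.2% (89.0%, 92.3% and 84.9% unthinned). At 48 h these shares were 68.9% (63.3 to 74.2%), 54.3% (48.4 to 60.1%) and 47.1% (45.2 to 49.0%). High-score cells thus stood above the top 10% by goblet score at 48 h (84.3%, 74.4% and 69.3% unthinned). Irf7 (1.66) was the only other gene of the list at 2-fold at 24 h, and Ido1 was the only one at 48 h. Outside the list, Upp1 (chr11:9118103-9136170), uridine phosphorylase, had 23.8 CPM in untreated high-score cells, 729 CPM at 24 h and 658 CPM at 48 h, against 4.75, 40.4 and 48.6 CPM in the others. It was higher by 4.94 (95% CI 4.67 to 5.21) and 4.79 (4.52 to 5.07), and by 5.18 and 5.90 over cells with at least 3 score genes. After thinning to 5000 UMIs, 57.1% of high-score cells at 24 h (95% CI 46.3 to 67.5%) and 52.2% at 48 h (46.3 to 58.1%) had an Upp1 UMI. The other cells had 18.0% and 19.0%, the top 10% by goblet score 7.69% and 15.4%, and untreated high-score cells 11.4% (unthinned, high-score cells had 80.2%, 67.9% and 45.7%). Its spread was wide, from 0 in 18 of 91 and 94 of 293 cells to 86.1 and 86.2 UMIs per 10000.

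Apol10a (chr15:77477047-77491069), an apolipoprotein L family member, followed the same pattern at a lower level. It had 4.07, 78.1 and 70.2 CPM in high-score cells and 0.401, 7.15 and 3.74 CPM in the others, and was higher by 4.26 and 4.11 under IFN-γ. UMIs were found in 10 of 105, 54 of 91 and 117 of 293 high-score cells. Upp1 and Apol10a already stood higher in untreated high-score cells, by 2.33 and 3.34, but both missed the 10 CPM limit in that library. The Apol10a ratio rests on few UMIs, found in 10 of 105 high-score cells and 16 of 953 other cells. Zbp1, a sensor of nucleic acids that can start necroptosis, had 3.26, 149 and 153 CPM against 1.40, 77.8 and 84.2 CPM, and 1 cell held 8 of its 16 untreated UMIs.

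**Figure D5:**
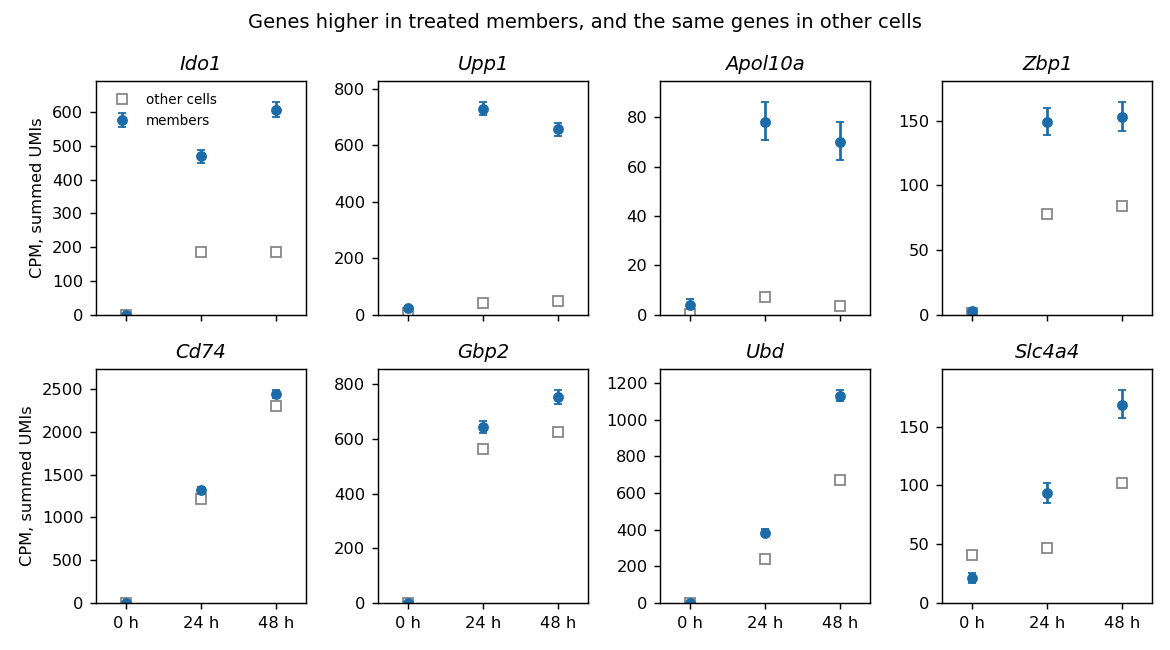
CPM from summed UMIs (y axis, from 0) of 8 genes in high-score cells (filled, labelled members, with 95% Poisson intervals for counting error) and other cells (open) at 0, 24 and 48 h of IFN-γ (x axis), 1 library per time. The sums of Ido1 (606 against 185 CPM at 48 h), Upp1 (658 against 48.6 CPM) and Apol10a (70.2 against 3.74 CPM) lie apart. Those of Cd74 and Gbp2 lie close together, and Ubd, a ubiquitin-like protein (384 and 1129 against 240 and 673 CPM), lies between. Per cell, Ido1, Upp1 and Apol10a overlapped between high-score and other cells.

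Genes of cell death were higher in 7 of 22 cases at 24 h and 9 of 22 at 48 h, and 0 were lower. The necroptosis kinase Ripk3 was higher by 1.71 and 1.65, its effector Mlkl by 1.89 and 1.98, the death ligand Tnfsf10 by 5.27 and 6.07, the death receptors Fas and Tnfrsf1a by 1.36 and 2.10 at 24 h, and the pore former Bak1 by 1.04 and 1.03. The medians over the list were 0.75 and 0.58 in high-score cells, 0.76 and 1.02 in those with at least 3 score genes, and 0.65 and 0.61 in the other cells. The inhibitors Xiap, Mcl1 and Cflar were within 2-fold at each time. Regenerative and YAP genes were higher in 6 of 14 and 4 of 13 cases and lower in 2 and 2. Areg and Ereg, ligands of the EGF receptor, had 405, 823 and 635 CPM and 7.33, 41.7 and 32.9 CPM, and Ly6a, Sca-1, had 812, 4038 and 4562 CPM, close to 915, 3412 and 3735 CPM in the other cells. Il1rn, the interleukin 1 receptor antagonist, was lower by −1.96 and −2.18. In the BMP pathway 0 genes were higher and 2 of 12 lower at each time, Bmp2 (90.4, 31.1 and 25.8 CPM) and 1 inhibitory SMAD, Smad7 (82.2, 38.1 and 30.8 CPM), while the target Id1 was within 2-fold (524, 493 and 302 CPM).

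Promoters were searched on both strands for the letters of 3 motifs in the 250 bases before the start. Of 694 genes with a promoter entry that were higher at 24 h in high-score cells, 67 held the GAS letters (9.65%) and 49 the IRF letters (7.06%), where all 6797 tested genes with an entry had 6.80% and 3.16%. At 48 h the shares were 9.46% and 5.50% of 782 genes, against 6.78% and 3.07% of 6876. Among the genes that were lower, 7.90% and 3.36% at 24 h and 7.34% and 3.85% at 48 h held them. The letters CAAAGTCCA, bound by HNF4 factors, were in 0.384% of all promoters, in 2 of 595 promoters of genes lower at 24 h (0.336%, against 0.383% of the tested genes) and in 3 of 545 at 48 h (0.550% against 0.407%). GAS and IRF matches may share bases, and neither a match nor its absence was tested for binding.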

How the data were processed

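Per the labels, 3 libraries of colon organoids were made with 10x Genomics 3′ v3 kits, 1 per condition. The authors mapped reads with Cell Ranger 6.0.1 to mm10 (submitters' notes) and deposited UMI counts per gene and barcode for 32285 genes. The counts held 20841, 17227 and 22478 barcodes in the untreated, 24 h and 48 h libraries. Whether barcodes with few UMIs had been removed before deposit was not tested. The annotation release is not given in the sources used here.

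Counts were summed over high-score and over other filtered cells and scaled to CPM in Python 3.11.15 with numpy 2.4.6, scipy 1.17.1 and pandas 2.3.3. Tested genes had at least 10 CPM over the filtered cells of the library, or on average over the 2 groups of high-score cells. With 1 library per condition no test was made. Ratios have exact conditional binomial, sums exact Poisson and shares exact Clopper-Pearson 95% intervals, for counting error only. A group without counts was set to a floor of 3 counts, which gives a lower bound. List medians use genes with at least 20 UMIs over both groups. Scaling by the totals was compared with TMM factors (edgeR 4.0.16). Doublets were kept, since no caller that works was at hand, and free RNA was not removed. The scripts were tested on simulated data.

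The members, lists and comparisons were chosen with earlier results of these data known. Named genes are the score genes, the list genes, the 10 highest and 5 lowest ratios within each library, the 10 recurring ones, and the 10 largest rises and falls by the smaller of the 24 h and 48 h ratios. Nos2, Samhd1 and the single cells described were singled out after their values were seen. Gene positions are from GENCODE vM21 and promoters from RefSeq GRCm38.p6. Some genes of these lists are counted in the lists but not reported here by name.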

Additional observations from a re-analysis of the deposited data

Results flagged for a closer look

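The lists below had a median log2 ratio of high-score cells to other cells with another sign in untreated than in both treated libraries, each at least 0.1 in size. The BMP list also changed sign, but closer to 0, with −0.10, 0.34 and 0.03. The difference was not tested, since each condition has 1 library. For the regenerative and YAP list the median was −0.18 in untreated organoids, 0.41 at 24 h and 0.24 at 48 h. The median of all genes tested was −0.27, −0.04 and −0.09, and TMM scaling would raise the untreated value by 0.14. Relative to the median of all genes the untreated list lay on the higher side, so that this change of sign depends on how the ratios are centred. For the enteroendocrine list the median was −0.55 in untreated organoids, 4.57 at 24 h and 0.45 at 48 h. At 24 h this rested on 4 cells rich in Chga, of which 1 held 9538 of 9559 Pyy UMIs.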

How the results depend on the processing

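The counts of 2-fold genes were recomputed under 14 alternatives, of which 2, the cells with at least 3 score genes and the cells rich in Chga left out, were chosen after seeing the data. Of 70 counts (higher genes within libraries, and genes that differed from untreated cells), 53 stayed within 1.5 times the reported one. Of 42 counts of lower genes within libraries, 19 did. The 1652 lower genes of untreated organoids ranged from 596 to 3223, the 92 at 24 h from 26 to 642 and the 58 at 48 h from 1 to 1288, with 758 for the top 5% of cells, 2 with a minimum of 2000 UMIs and 1288 for cells with at least 3 score genes. At 24 h they were 440 for the top 5% and 256 with the mean over cells of CPM. At 48 h the 185 genes higher in high-score cells became 89 with a minimum of 2000 UMIs, 391 with the top 5% of cells, 59 with the top 20% and 446 with the cells with at least 3 score genes. At 24 h the 290 genes became 91 with the top 20%, 130 with the score on cells thinned to 5000 UMIs and 173 with the score without Krt20. Without the CPM limit the counts within libraries were 1384, 1363 and 766 and those against untreated cells 2773 and 2804, in place of 1638 and 1692. With a limit of 50 CPM they were 190, 82 and 48, and 588 and 590. These totals hide shifts of direction: the 861 higher and 777 lower genes at 24 h became 491 and 1050 with the top 20% of cells, and the 969 and 723 at 48 h became 619 and 660 with at least 3 score genes. The enteroendocrine list changed sign. Its median within the 24 h library, 4.57, was −1.73 with the top 5% of cells, −2.91 without Krt20, −0.69 with at least 3 score genes and −1.15 without the cells rich in Chga. Its median at 24 h against untreated cells, 3.16, was −0.52 without Krt20, −0.30 with at least 3 score genes and −0.26 without those cells, and at 48 h −1.24 became 4.09 with the top 5%. The 23 list medians of at least 1 in size had 320 values under alternatives, of which 312 kept the sign and 302 stayed at 1 or more. Of the 320 values, 48 moved by over 1.5 times the fold. No paired analysis was possible because each condition has 1 library. The depth at 48 h, with a median of 12459 UMIs per high-score cell, limits what a cell without a UMI can show.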

Other observations

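A calcium-binding protein of absorptive cells, S100g, had 27.9 CPM in untreated high-score cells, 32.2 CPM at 24 h and 77.3 CPM at 48 h, while the other cells had 21.6, 19.6 and 4.33 CPM. At 48 h 1 cell held 22% of its 369 UMIs. Prdm1, a repressor that marks fetal intestine, had 5.29, 21.3 and 11.5 CPM in high-score cells and 0.757, 2.89 and 3.27 CPM in the others. The inducible nitric oxide synthase Nos2 had 15.9, 127 and 114 CPM against 9.69, 49.2 and 54.6 CPM. Ifit1bl1 went the other way in high-score cells, with 117, 50.9 and 27.0 CPM, and up in the others, with 2.14, 4.80 and 4.43 CPM. A single cell held 59% of its untreated UMIs and another 53% of those at 24 h.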
